A study of Mus musculus with 2 samples.

Results

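The 10 genes described here make proteins that build, load and export the chylomicron or ride on it. They are the apolipoprotein genes Apoa1, Apoa4, Apob, Apoc2 and Apoc3, the lipid transfer gene Mttp, the acyltransferase genes Mogat2, Dgat1 and Dgat2, and the export gene Sar1b. They were taken by symbol, and all 10 were among the 32285 genes listed in both count tables. The rule that picks them uses symbols and no measured value, although the set was proposed with earlier results of these data known.

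Enterocytes take up fatty acids and monoacylglycerol from the gut lumen, rebuild them into triglyceride in the endoplasmic reticulum, and pack the triglyceride around a single apolipoprotein B molecule. The resulting chylomicron leaves the endoplasmic reticulum in coated carriers, passes the Golgi and is secreted toward the lymph. Smaller apolipoproteins on its surface then steer how lipoprotein lipase and the liver handle the particle.

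Intestinal epithelial cells from mice of 2 genotypes were profiled by single-cell RNA-seq (scRNA-seq, 10x 3′ kit) on day 7 of 2.5% dextran sulfate sodium (DSS), a chemical that injures the gut lining, given in drinking water. MG53-TG mice overexpress MG53 (Trim72), a membrane repair protein, in the whole body, and the WT mice were their littermates per the study, also on DSS. Cells positive for EpCAM and negative for the dead-cell dye 7-AAD were sorted from crypts of the intestine. Each genotype had 1 library. The study gives a group size of several for this experiment, but how many mice entered each library is not stated, and cells could not be traced to single mice, so genotypes were compared without a test and every interval covers counting error only. No library without DSS was analysed here. The MG53-TG table also came from a later software version and held only barcodes of at least 500 UMIs, so genotype, library and processing cannot be told apart. How the MG53-TG line was made and the age of the mice are not given in the sources used here. Paired values below are in the order WT, MG53-TG.

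After filtering, 6963 WT and 4941 MG53-TG cells remained, of which 6119 and 4606 were epithelial, in 22 clusters. Barcodes of at least 500 UMIs (unique molecular identifiers, each standing for 1 captured RNA molecule) shared by both libraries numbered 46. Trim72 had 0.594 and 50.8 CPM in WT and MG53-TG epithelial cells, and Epcam 567 and 600.3 CPM, where CPM is the UMIs of a gene in 1000000 UMIs of those cells. The leukocyte gene Ptprc had 6.27 and 12 CPM there. Cell types were named from marker genes that include none of the 10, and the 10 and Trim72 were kept out of the clustering. Since the 3′ kit reads each molecule near its end, levels were not divided by gene length.

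Apoa1 (chr9:46228580-46230466, plus strand, ENSMUSG00000032083), Apoc3 (chr9:46232933-46235636, minus strand, ENSMUSG00000032081) and Apoa4 (chr9:46240696-46243459, plus strand, ENSMUSG00000032080) lie side by side on chromosome 9, in mm10 with GENCODE vM21 coordinates. Mogat2 (chr7:99219084-99238619, minus strand, ENSMUSG00000052396) and Dgat2 (chr7:99153658-99182719, minus strand, ENSMUSG00000030747) are neighbours on chromosome 7. Apoc2 lies at chr7:19671579-19677941, minus strand, ENSMUSG00000002992, Apob at chr12:7977648-8016835, plus strand, ENSMUSG00000020609, and Mttp at chr3:138089854-138144968, minus strand, ENSMUSG00000028158. Dgat1 lies at chr15:76502015-76511953, minus strand, ENSMUSG00000022555, and Sar1b at chr11:51763687-51791925, plus strand, ENSMUSG00000020386. Apoa4, Mogat2 and Mttp are overlapped on the opposite strand by annotated genes that the tables also count (Gm10680, Gm45012, and Gm43691 with Trmt10a). How strand was used in counting is not stated, so the counts of these 3 genes are less certain. Apoc2 is overlapped on its own strand by the annotated protein-coding gene Gm44805, which was not counted. Strand cannot tell their reads apart, and the part of Gm44805 in the Apoc2 counts was not tested.

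RefSeq (GRCm38.p6) gave promoter windows for 6 of the 10 genes, and those of Apoa1, Apoa4 and Apob are shown because these 3 genes had the most UMIs in enterocyte-like cells. Each window of 300 bases spans the annotated start and is written 5′ to 3′ on the strand of the gene, here plus. Capitals mark the letters CAAAGNNCA, the core bound by hepatocyte nuclear factor 4, and TATAAA, the TATA box, searched on both strands.
Apoa1, chr9:46228380-46228679: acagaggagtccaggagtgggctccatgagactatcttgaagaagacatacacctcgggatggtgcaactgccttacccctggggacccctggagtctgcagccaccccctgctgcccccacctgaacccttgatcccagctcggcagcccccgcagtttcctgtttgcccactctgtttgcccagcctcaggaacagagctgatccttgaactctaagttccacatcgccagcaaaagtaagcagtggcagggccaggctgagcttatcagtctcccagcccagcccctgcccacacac
Apoa4, chr9:46240594-46240893: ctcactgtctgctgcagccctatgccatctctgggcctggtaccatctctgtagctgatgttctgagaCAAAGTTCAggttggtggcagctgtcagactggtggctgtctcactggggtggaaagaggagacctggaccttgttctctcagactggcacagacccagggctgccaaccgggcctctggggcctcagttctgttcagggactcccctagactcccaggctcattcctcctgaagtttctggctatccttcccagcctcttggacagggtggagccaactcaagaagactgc
Apob, chr12:7977427-7977726: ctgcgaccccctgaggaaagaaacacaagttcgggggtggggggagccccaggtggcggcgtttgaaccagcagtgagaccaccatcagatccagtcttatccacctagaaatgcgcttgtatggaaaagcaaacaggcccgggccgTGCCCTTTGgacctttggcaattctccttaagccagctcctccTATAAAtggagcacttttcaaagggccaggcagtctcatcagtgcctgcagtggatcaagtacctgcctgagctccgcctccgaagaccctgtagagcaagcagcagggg
Positions are counted from the RefSeq start that the window is built on, which for these 3 genes lies inside the GENCODE gene given above, downstream of its first base. CAAAGNNCA was found in Apoa4 at position -182 from the start and, on the minus strand, in Apob at -103, and it occurs in 6.36% of 32851 RefSeq windows of the same length. TATAAA was found in Apob at -60 and occurs in 13.6% of windows. Neither lay in the Apoa1 window shown or in those of Apoc2, Mttp and Sar1b. The GATA letters AGATAA lay in none of the 6, against 11.2% of all windows, nor did the peroxisome proliferator-activated receptor repeat (AGGTCA, any base, AGGTCA), against 0.0396%. AGGTCA on its own lay only in the Apoc2 window, at -115 and 42, and in 16.3% of all. These are matches of letters, and no binding was measured.

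The 10 genes were mainly genes of enterocyte-like cells, and together they took 3.08 and 2.80% of all UMIs of those cells in WT and MG53-TG. In absorptive progenitor-like cells they took 0.250 and 0.254%, and in stem-like cells 0.0729 and 0.0713%. Enterocyte-like cells were 20.6 and 20.4% of epithelial cells (1263 and 938 cells) and held 14.1 and 17.3% of epithelial UMIs. With barcodes up to 50% mitochondrial UMIs kept, 3205 WT and 3520 MG53-TG cells were enterocyte-like. The values here leave out barcodes over the main mitochondrial limit, so they do not describe all enterocyte-like cells. In the main values these cells held 79.1% of the epithelial UMIs of the 10 genes in WT and 84.6% in MG53-TG, or 81.7% in both together. By gene and over both libraries this share ran from 87.9% for Apoa1 and 87.7% for Apoa4 through 74.99% for Apob and 60.5% for Mttp to 48.4% for Dgat1 and 29.9% for Sar1b. Sar1b had a larger share, 32.3%, in absorptive progenitor-like cells. Apoa1 made up 71.1 and 66.3% of the UMIs of the 10 genes in enterocyte-like cells, so the pooled values mostly describe Apoa1. Each of the 10 was highest in enterocyte-like cells in both libraries, and for Sar1b alone the values of the 2 libraries overlapped those of the next type, absorptive progenitor-like cells.

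**Figure D1:**
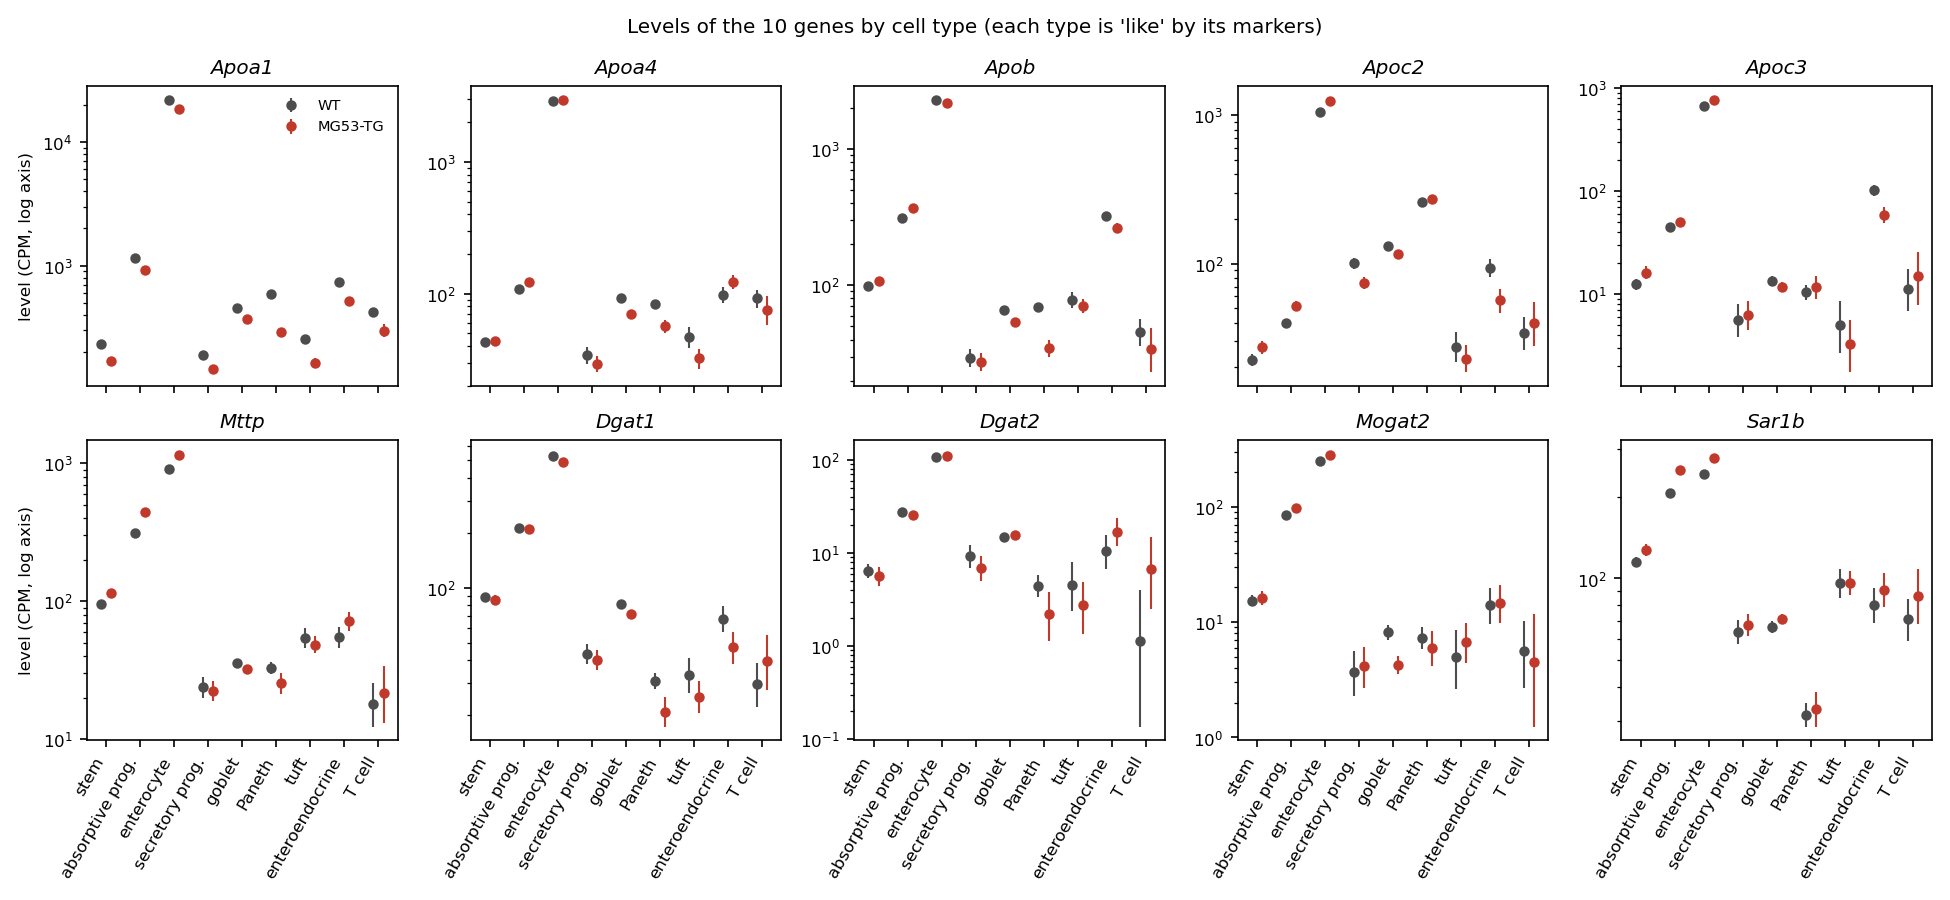
Level of each gene in CPM (log axis) in 8 epithelial cell types and T cell-like cells, for the WT (gray) and MG53-TG (red) library, where bars are 95% Poisson intervals for counting error. Every gene peaks in enterocyte-like cells, where Apoa1 reaches 21907 and 18555 CPM, whereas Sar1b in absorptive progenitor-like cells lies close to its enterocyte-like level.

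T cell-like cells, which should make none of the tissue-specific members, gave the background. The study calls the profiled cells CD45-, but the sort in its methods names only EpCAM and 7-AAD, so how CD45 was used is not known. Whether the T cell-like cells carry more epithelial RNA than other cells was not tested. Their cluster had 1206 and 1404 CPM of Ptprc and 78.5 and 69.3 CPM of Epcam. The 10 genes took 0.0733 and 0.0620% of their UMIs, with Apoa1 at 425 and 298 CPM, Apoa4 at 91.98 and 74.99 CPM and Apob at 45.4 and 34.1 CPM. For 7 genes the level was at most 3.27% of that in enterocyte-like cells, the others being Dgat2 (1.04 to 6.15%, from 2 and 6 UMIs), Dgat1 (5.62 to 8.08%) and Sar1b (29.3 to 31.04%). Sar1b and Dgat1 act in many cell types, so for them this level is not read as background. A further cluster, 17 (220 and 86 cells), had all 11 T cell markers but was shallow with none of them among its 10 leading genes, and was left unnamed. It had Apoa1 at 653 and 368 CPM, Apoa4 at 129.7 and 77.9 CPM and Apoc2 at 94.5 and 53.1 CPM, so the background was uneven and in part above the T cell-like values.

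The RNA outside cells was rich in the same genes. WT barcodes under 100 UMIs, which hold few or no cells, carried 61445 UMIs of the 10, and Apoa1 made up 64.1% of these, against 71.1% in WT enterocyte-like cells. Levels there were 22.4% (Mogat2) to 57.4% (Apoc2) of those in WT enterocyte-like cells. The MG53-TG table had no such barcodes. Values of the apolipoproteins in other cell types are therefore set beside the T cell-like value.

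**Figure D2:**
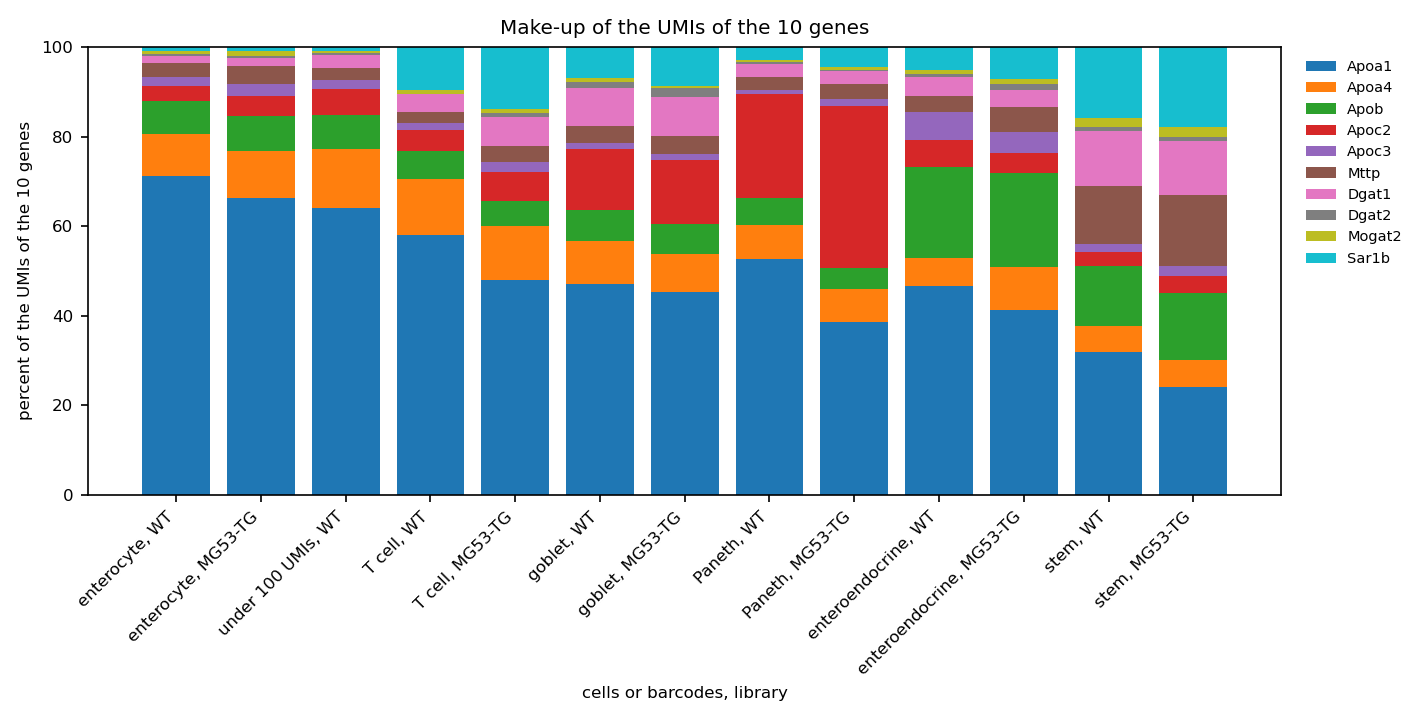
Make-up of the UMIs of the 10 genes (percent, stacked bars to 100) by cell type and library, with WT barcodes under 100 UMIs. Apoa1 takes 71.1 and 66.3% in enterocyte-like cells, Apoc2 takes 23.2 and 36.3% in Paneth-like cells, and Sar1b takes 15.8 and 17.9% in stem-like cells.

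Apoa1 encodes the main protein of high-density lipoprotein, which the intestine also places on chylomicrons. In enterocyte-like cells it had 21907 CPM (interval 21832 to 21983) in WT and 18555 CPM (18487 to 18623) in MG53-TG. In each cell thinned to 1354 UMIs, an Apoa1 UMI was found in 99.8% (interval 99.3 to 99.95) of WT and 98.8% (97.9 to 99.4) of MG53-TG enterocyte-like cells, against 46.2% (interval 42.1 to 50.4) of WT and 27.3% (21.6 to 33.5) of MG53-TG T cell-like cells. Unthinned, the shares were 100 and 100% against 64.7 and 64.1%, at median depths of 7865 and 15632.5 against 2823.5 and 3562 UMIs. Apoa1 was thus met in nearly all enterocyte-like cells and was also the member met most often in T cell-like cells.

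Apoa4, an apolipoprotein that enterocytes secrete during fat absorption, had 2907 CPM (interval 2879.6 to 2934) in WT and 2937 CPM (2910.2 to 2964) in MG53-TG. Apob, the scaffold of the particle, had 2260.3 CPM (interval 2236 to 2285) in WT and 2163 CPM (2140.0 to 2186) in MG53-TG. Apoc2, which activates lipoprotein lipase, had 1047 CPM (interval 1031 to 1064) in WT and 1261 CPM (1243 to 1278) in MG53-TG, and Apoc3, which restrains that enzyme, 669 CPM (interval 656 to 682) in WT and 759.5 CPM (746 to 773) in MG53-TG. After thinning, an Apoa4 UMI was found in 72.3% (interval 69.7 to 74.7) of WT and 79% (76.2 to 81.6) of MG53-TG cells, and an Apob UMI in 88.4% (interval 86.5 to 90.2) of WT and 87.7% (85.5 to 89.8) of MG53-TG. In T cell-like cells these shares were 14.5 and 9.09% for Apoa4 and 6.75 and 5.19% for Apob. Apoc2 and Apoc3 were met in fewer enterocyte-like cells, 45.1 and 53.3% and 42.7 and 50%, against 6.06 and 6.06% and 1.73 and 1.30% of T cell-like cells.

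Mttp encodes the large subunit of the transfer protein that moves lipid onto apolipoprotein B, and it had 905 CPM (interval 889.6 to 920.2) in WT and 1152 CPM (1135 to 1169) in MG53-TG. Mogat2, which joins a fatty acid to monoacylglycerol, had 251 CPM (interval 243 to 259) in WT and 278 CPM (269.7 to 286) in MG53-TG. The last step of triglyceride synthesis is shared by Dgat1, at 529 and 492 CPM in WT and MG53-TG, and the unrelated enzyme Dgat2, at 108 and 111 CPM. Both enzymes were thus near the same level in the 2 libraries. Sar1b, a small GTPase of the coat that carries the particle out of the endoplasmic reticulum, had 242 CPM (interval 234 to 249.6) in WT and 278 CPM (269.9 to 287) in MG53-TG.

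Below enterocyte-like cells the order of the types differed by gene. For Mttp the ranges of the 2 libraries did not overlap down to tuft-like cells, with 314 and 442 CPM in absorptive progenitor-like, 95.2 and 114 CPM in stem-like, 54.7 and 71.5 CPM in enteroendocrine-like and 53.9 and 48.5 CPM in tuft-like cells. Mogat2 followed the same order at first, with 84.5 and 96.7 CPM, 15.4 and 16.3 CPM and 14.1 and 14.6 CPM in the first 3 of these. In these 3 types both genes stood above their T cell-like level of 17.9 and 21.6 CPM for Mttp and 5.61 and 4.55 CPM for Mogat2.

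Dgat1 was more widely spread. It had 214 and 210.1 CPM in absorptive progenitor-like, 89.1 and 85.8 CPM in stem-like and 81.2 and 71.8 CPM in goblet-like cells, and was lowest in tuft-like cells, at 33.3 and 25.4 CPM, and Paneth-like cells, at 30.9 and 20.98 CPM, whose ranges overlapped. Dgat2 had 27.5 and 25.6 CPM in absorptive progenitor-like and 14.8 and 15.8 CPM in goblet-like cells, the latter overlapping enteroendocrine-like cells, and 6.39 and 5.65 CPM in stem-like cells. Stem-like cells thus ranked below goblet-like cells for Dgat2 and above them for Dgat1. Sar1b had 115 and 127 CPM in stem-like, 96.02 and 96.5 CPM in tuft-like and 79.8 and 90.9 CPM in enteroendocrine-like cells, and was lowest in Paneth-like cells, at 31.6 and 33.2 CPM, below its T cell-like level of 70.7 and 86.4 CPM.

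In cells thinned to 1354 UMIs, an Mttp UMI was found in 71.7% (interval 69.1 to 74.1) of WT and 74.8% (71.9 to 77.6) of MG53-TG enterocyte-like cells, against 3.11 and 2.60% of T cell-like cells. A Dgat1 UMI was found in 56.3% (interval 53.5 to 59.1) of WT and 53.4% (50.2 to 56.6) of MG53-TG, against 5.02 and 4.76%. Mogat2, Sar1b and Dgat2 were met in fewer enterocyte-like cells. Their shares were 23.3 and 28.9%, 18.4 and 20.7%, and 16.2 and 14.9%, against 0.865 and 1.30%, 8.13 and 9.96%, and 0.346 and 1.73% of T cell-like cells. Unthinned, the enterocyte-like shares were 67.6 and 79.2%, 54.9 and 65.6% and 60.6 and 69.7%.

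The genes did not appear together along the absorptive lineage. In absorptive progenitor-like cells Sar1b was already at 85.3 to 90.3% of its enterocyte-like level over the 2 libraries, Dgat1 at 40.4 to 42.7%, Mttp at 34.7 to 38.4%, Mogat2 at 33.7 to 34.8% and Dgat2 at 23.1 to 25.5%. Apob stood at 13.8 to 17.03%. The surface apolipoproteins were lowest, with Apoc3 at 6.55 to 6.64%, Apoa1 at 4.96 to 5.25%, Apoa4 at 3.70 to 4.21% and Apoc2 at 3.78 to 4.10%. For Apoa4 and Apoc2 the progenitor-like value lay just above the T cell-like one, which was 2.55 to 3.16% for Apoa4 and 3.15 to 3.27% for Apoc2. In cluster 17, however, Apoc2 in both libraries and Apoa4 in WT were above the progenitor-like levels. The progenitor-like clusters were also uneven. Apoa1 was 260 and 237 CPM in cluster 5 and 259 and 286 CPM in cluster 14, below the T cell-like 425 and 298 CPM. Apoa4 and Apoc2 were above the T cell-like level only in cluster 11 in WT and only in clusters 11 and 18 in MG53-TG. The ranges of the 2 libraries for the enzymes, Mttp and Sar1b did not overlap those for the surface apolipoproteins. In stem-like cells Sar1b stood at 45.8 to 47.7%, Dgat1 at 16.8 to 17.4%, Mttp at 9.89 to 10.5%, Mogat2 at 5.88 to 6.13% and Apob at 4.34 to 4.92%, whereas Apoa1 stood at 0.920 to 1.06%, below its T cell-like level of 1.60 to 1.94%. Most stem-like UMIs (63.4 and 64.3%) came from cluster 4, which had stem markers but was led by cell cycle genes. Its Mttp was 118 and 145 CPM, against 55.6 and 57.8 CPM in stem-like cluster 7, and its Sar1b 119.9 and 133 CPM, against 107 and 117 CPM.

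**Figure D3:**
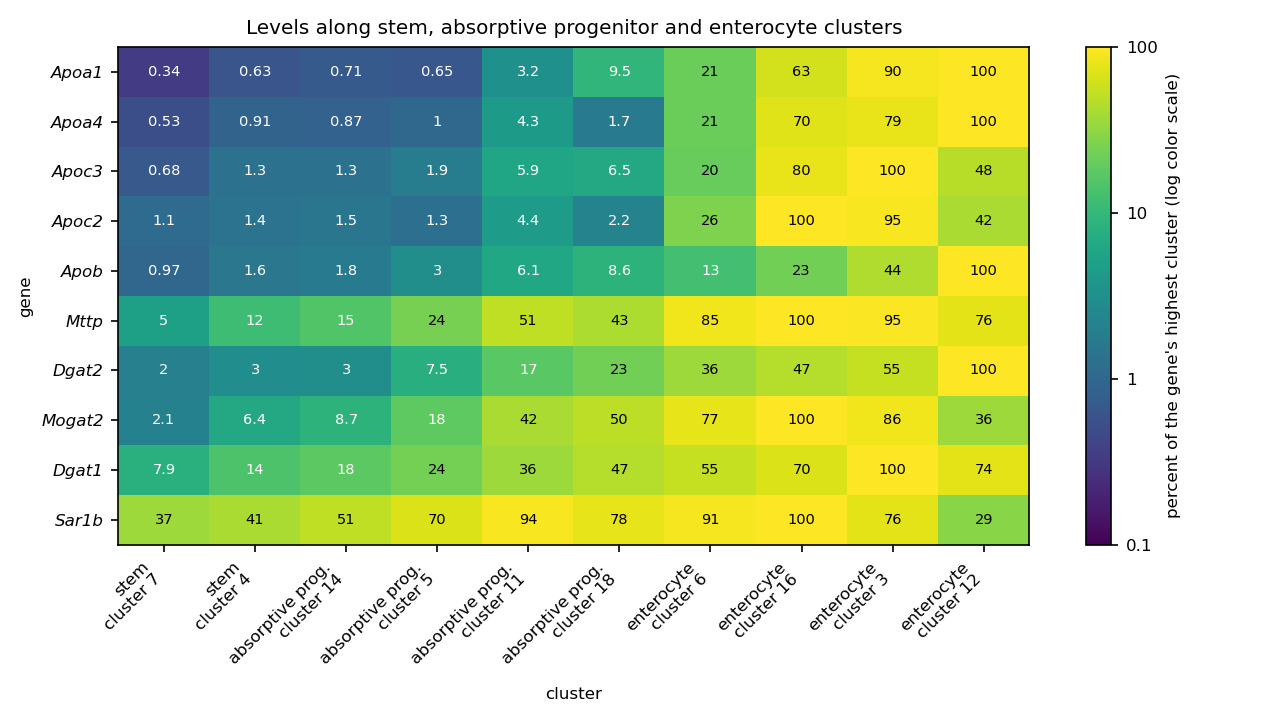
Each gene (rows) in the stem-like, absorptive progenitor-like and enterocyte-like clusters (columns), as a percent of the gene's highest cluster among these, from the geometric mean of the CPM of both libraries (log color scale). The lower rows, Mttp, the acyltransferases and Sar1b, are already at 17.1 to 94.4% in progenitor cluster 11, where Apoa1 is at 3.18% and Apoa4 at 4.31%.

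The progenitor-like clusters differed in which members they had. Cluster 18, led by the ileal gene Fabp6, had 3943 and 3326 CPM of Apoa1 in WT and MG53-TG but 78.5 and 110.3 CPM of Apoa4, a ratio of Apoa1 to Apoa4 UMIs of 50.2 in WT and 30.1 in MG53-TG. Cluster 11 was named on 3 of 7 progenitor markers and was led by genes that include Fabp1 and none of these markers. In it Apoa1 had 1548 and 948 CPM and Apoa4 253 and 232 CPM, a ratio of 6.13 in WT and 4.08 in MG53-TG. The ratio was 7.12 in WT and 8.37 in MG53-TG in enterocyte-like cluster 3 and 4.62 in WT and 3.97 in MG53-TG in T cell-like cells. Cluster 18 thus had far more Apoa1 per Apoa4 UMI than these clusters in both libraries. Its Apoa4 was below the T cell-like 91.98 CPM in WT and above the T cell-like 74.99 CPM in MG53-TG, so the ratio rests on Apoa4 near the background. Of the 17 enterocyte markers, 8 counted as markers of cluster 18 and 2 of cluster 11. Apoc2 in cluster 18 was 33.6 and 52.5 CPM, against 79.3 and 88.3 CPM in cluster 11 and 34.2 and 39.8 CPM in T cell-like cells. Apob in cluster 18 was 599 and 721 CPM, against 465 and 459 CPM in cluster 11. In these clusters the distal genes Fabp6 and Slc10a2 had 6310.3 and 3501 CPM and 117 and 92.7 CPM in cluster 18 and 6.17 and 1.79 CPM and 0.301 and 0 CPM in cluster 11.

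Enterocyte-like cells fell into 4 clusters. Cluster 6 (353 WT and 287 MG53-TG cells), led by Sult6b2, S100g and Gsta1, had the lowest Apoa1 of the 4, at 9307 and 7073 CPM, and the lowest Apob, at 918 and 1023 CPM. Its Mttp was 829 and 1120.1 CPM and its Mogat2 246 and 254 CPM. In WT its Mttp was also the lowest of the 4, but close to the 837 CPM of cluster 12. Cluster 16 (171 and 154 cells), led by Leap2, Slc2a2 and Cyp3a11, had the highest Mogat2, at 309.6 and 342 CPM, and Sar1b, at 297 and 315 CPM. Mttp was highest in cluster 3 in WT and in cluster 16 in MG53-TG, at 1010.4 and 1149.8 CPM and 985 and 1293 CPM in the 2 clusters. Cluster 3 (428 and 332 cells), led by Enpp7, Plb1 and Fam151a, had the highest Dgat1, at 773 and 675 CPM, and Apoc3, at 1269.8 and 1328 CPM.

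Cluster 12 (311 and 165 cells) was led by Clca4a, and its leading genes included Slc10a2, the ileal bile acid carrier, and Ada, a gene of the villus end. It had the highest Apob of all clusters, at 7063 and 8203 CPM, against 3654 and 3100.3 CPM in cluster 3, and the highest Dgat2, at 214 and 246 CPM. Sar1b and Mogat2 were lowest there among the enterocyte-like clusters, at 85.98 and 92.1 CPM and 107 and 129 CPM. Apob was thus highest in the cluster where Sar1b and Mogat2 were lowest, in both libraries. Its median depth of 3341 and 4503 UMIs was the lowest of the 4, the others having 4950 to 23702 UMIs, and the part of depth in this pattern was not tested. In cells thinned to 1354 UMIs, the 10th percentile, median and 90th percentile of Apob UMIs per cell were 3, 8 and 20 in WT and 3.4, 10 and 20 in MG53-TG cluster 12, against 1, 5 and 13 and 1, 4 and 11 in cluster 3 and 0, 1 and 3 and 0, 1 and 3 in cluster 6. For Apoa1 these were 23, 51 and 84 and 23, 53 and 85.6 in cluster 12, and 4, 11 and 25.8 and 2, 9 and 20.4 in cluster 6. Apoa4 was uneven among the cells of cluster 12. Without an Apoa4 UMI were 40.8% of its thinned WT and 21.8% of its thinned MG53-TG cells, while the 90th percentile was 19 and 26 UMIs.

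In enterocyte-like cells all 10 genes lay within 1.5-fold between the libraries. The log2 ratio of MG53-TG over WT was highest for Mttp, at 0.35 (interval 0.32 to 0.38), then for Apoc2, at 0.27 (interval 0.24 to 0.30), and Sar1b, at 0.20 (interval 0.14 to 0.27). It was lowest for Apoa1, at -0.24 (interval -0.25 to -0.23), and Dgat1, at -0.10 (interval -0.15 to -0.06). Apoa4 and Dgat2 had 0.01 (interval -0.0041 to 0.03) and 0.04 (interval -0.06 to 0.14), intervals that include 0, while Apob had -0.06 (interval -0.09 to -0.04), Apoc3 0.18 (interval 0.14 to 0.22) and Mogat2 0.15 (interval 0.09 to 0.21). None of the 10 passed a fold of 1.5 in either direction, a rule of size used because nothing could be tested, and 2.33% of the 4901 measured genes passed it. A gene counted as measured with at least 30 UMIs in both libraries together and 20 CPM in either. 7 members lay above 0 and 3 below, with a median of 0.10, beside 0.06 for all measured genes, of which 65.1% lay above 0. The median was -0.0176 when barcodes up to 50% mitochondrial UMIs were kept, the direction then being the opposite one. Apoa1, Apoc2, Apoc3 and Mttp kept their direction under all 13 alternatives of filter, clustering, scale and summing that gave a value per gene. Apoa4 changed sign under 4 of the 13, Apob under 3 and Dgat2 under 2, and Dgat1, Mogat2 and Sar1b under 1 each, the mitochondrial limit of 50%.

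**Figure D4:**
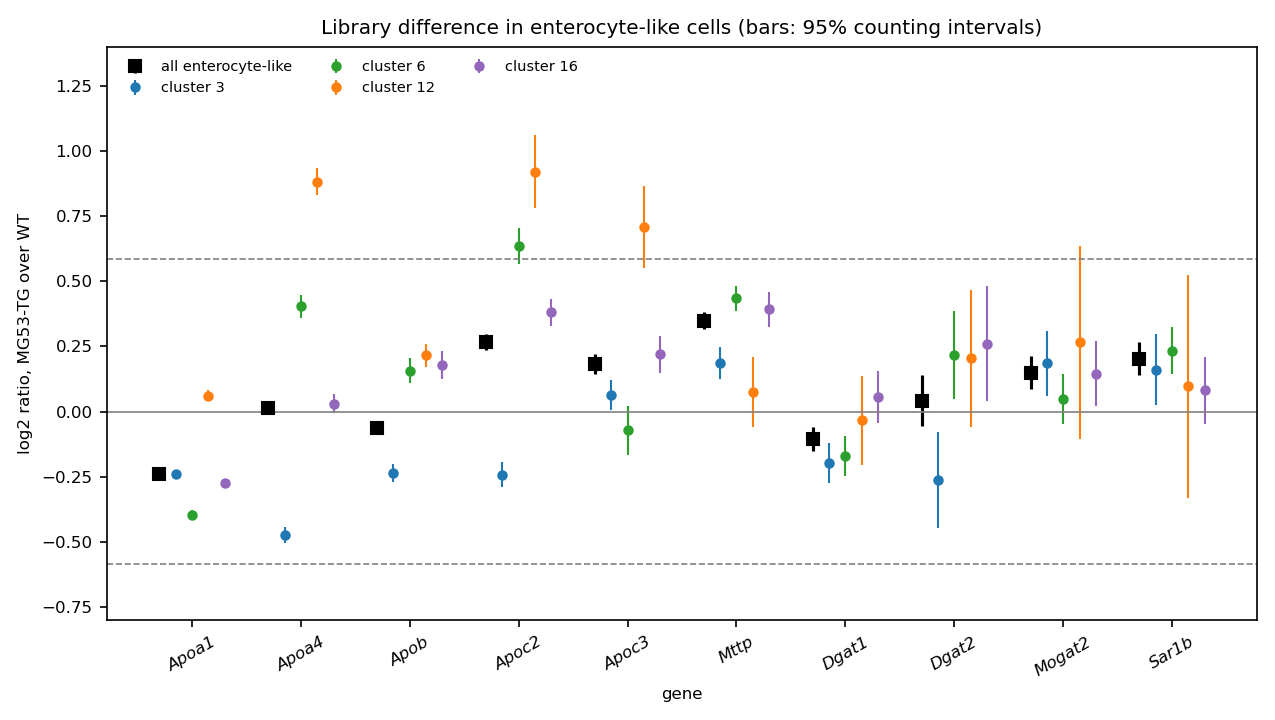
log2 ratio of MG53-TG over WT for each gene in all enterocyte-like cells (black squares) and in the 4 enterocyte-like clusters (colored points), with 95% counting intervals, a line at 0 and dashed lines at a fold of 1.5. The squares lie between -0.24 and 0.35, inside the dashed lines, while Apoa4, Apoc2 and Apoc3 of cluster 12 and Apoc2 of cluster 6 lie above the upper one.

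By cluster, the ratios of Apoa4 and Apoc2 spread most widely among the 10 genes. Apoa4 had -0.47 (interval -0.50 to -0.44) in cluster 3, 0.40 (interval 0.36 to 0.45) in cluster 6, 0.03 in cluster 16 and 0.88 (interval 0.83 to 0.93) in cluster 12. Apoc2 had -0.24, 0.63, 0.38 and 0.92 in the same order. The sums over enterocyte-like cells thus hold ratios of opposite sign for both genes. Apob also had both signs, with -0.24 in cluster 3 and 0.16, 0.18 and 0.22 in clusters 6, 16 and 12. Its sum, at -0.06, thus had the sign of cluster 3 alone. Cluster 12, where the Apob level was highest, was 24.6 and 17.6% of enterocyte-like cells. The part of this shift in the Apob sum was not tested. Apoa1 had -0.24, -0.40 and -0.27 and, in cluster 12, 0.06. Mttp was above 0 in all 4 clusters, at 0.19, 0.44, 0.39 and 0.08 (interval -0.06 to 0.21) in that order, the last with an interval that includes 0.

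Cluster 12 had 3 of the 10 genes past a fold of 1.5, all higher in MG53-TG (Apoa4, Apoc2 and Apoc3), where 23.7% of measured genes passed it in either direction and 7.0% in this one. Apoa4 there was 4141 and 7635 CPM in WT and MG53-TG, Apoc2 575 and 1089 CPM and Apoc3 484 and 791 CPM. Other genes of position moved in the same cluster, with Fabp6 at 4811 and 2564 CPM, Slc10a2 at 1296 and 693 CPM, Ada at 1046 and 1947 CPM and the proximal gene Fabp1 at 317 and 1010.0 CPM, so the cells of this cluster were not alike in the libraries, and the part of this in the ratios was not tested. In cluster 6, Apoc2 passed the fold (403 and 626 CPM, beside 2.41% of measured genes, 1.45% higher), and in clusters 3 and 16 none of the 10 did (beside 6.46% and 6.19%).

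In absorptive progenitor-like cells none of the 10 genes, all measured, passed the fold, beside 1.81% of measured genes. Mttp again had the highest log2 ratio, 0.49 (interval 0.45 to 0.54), from 314 and 442 CPM in WT and MG53-TG. Apoa1 had the lowest, -0.32 (interval -0.35 to -0.29). The median of the 10 was 0.20, beside 0.07 for all measured genes. Clusters 5, 11, 14 and 18 made up 37.7, 26.2, 21.1 and 15% of the UMIs of these cells in WT and 28.8, 33.6, 23.5 and 14.04% in MG53-TG. Mttp was higher in MG53-TG within each, at 229 and 331 CPM, 518 and 644 CPM, 139 and 212 CPM and 416 and 571 CPM. In stem-like cells 7 of the 10 were measured and none passed the fold (beside 1.0% of measured genes), with Mttp at 0.26 (interval 0.16 to 0.36) and Apoa1 at -0.44 (interval -0.51 to -0.37).

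Apoa1 was lower in MG53-TG in the 7 epithelial types compared and in T cell-like cells, where it had -0.51 (interval -0.72 to -0.31) and none of the 7 measured members passed the fold (beside 10.7% of measured genes). The difference passed the fold in Paneth-like cells, at -1.02 (interval -1.10 to -0.94), and tuft-like cells, at -0.64 (interval -0.80 to -0.48). In Paneth-like cells Apoa1 was 593 CPM (interval 579 to 606) in WT and 292 CPM (278 to 307) in MG53-TG, and Apob, 68.8 and 34.5 CPM, was lower too, with a log2 ratio between -1.23 and -0.77. These were the 2 members past the fold of 7 measured, where 12.5% of measured genes passed it in either direction and 6.1% in this one. Paneth-like Apoa1 is at 1.57 to 2.71% of the enterocyte-like level, against 1.60 to 1.94% in T cell-like cells. Of the 17 enterocyte markers, 5 were measured in Paneth-like cells and 3 of these were lower in MG53-TG past the fold, with a summed level of 280.1 and 177 CPM and no marker at 0. Whether enterocyte RNA entered these values was not tested. In tuft-like cells Apoa1 was the 1 member past the fold of 7 measured (beside 4.06%, and 1.27% lower), at 257 and 165 CPM, below the T cell-like level in each library.

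Apoc2 was also present outside the absorptive lineage. Paneth-like cells had 261 CPM (interval 252 to 270.2) in WT and 275 CPM (261 to 289) in MG53-TG, 21.8 to 24.9% of the enterocyte-like level, whereas their Apoa1, Apoa4, Apob and Apoc3 were between 1.54 and 3.04% of theirs. T cell-like cells had 34.2 and 39.8 CPM. The Apoc2 intervals of Paneth-like and T cell-like cells did not overlap in either library. Apoc2 made up 23.2 and 36.3% of the UMIs of the 10 genes in Paneth-like cells, against 3.40 and 4.50% in enterocyte-like and 4.67 and 6.41% in T cell-like cells, and 5.85% in WT barcodes under 100 UMIs. Goblet-like cluster 8 had 357 and 306 CPM of Apoc2 with 71.3 and 86.8 CPM of Apoa4 (T cell-like cells had 91.98 and 74.99 CPM). A further goblet-like cluster, 23, had enterocyte genes among its markers, with Apoa1 at 4166 and 4286 CPM. Without it, goblet-like Apoa1 was 198 and 159.8 CPM in place of 454 and 370.4 CPM, and Apoc2 119 and 99.3 CPM in place of 132 and 117 CPM. None of the 7 measured members passed the fold in goblet-like cells with or without it (beside 1.14% and 1.12% of measured genes). Mogat2, which lay under the minimum of 20 CPM there, had 8.19 and 4.26 CPM, a log2 ratio of -0.94 (interval -1.28 to -0.61), and -1.36 (interval -1.82 to -0.91) without cluster 23. T cell-like cells had 5.61 and 4.55 CPM of Mogat2, so the MG53-TG goblet-like level was not above the background. Secretory progenitor-like cluster 10 had none of its own markers but the Paneth gene Mmp7 among its 10 leading genes, so the libraries were not compared over that type. Its Apoc2 was 122 and 106 CPM, against 36.3 and 30.02 CPM in the cycling secretory progenitor-like cluster 21.

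Enteroendocrine-like cells had Apob at 319 CPM (interval 296 to 343) in WT and 265 CPM (243 to 288) in MG53-TG, 12.2 to 14.1% of the enterocyte-like level, against 1.58 to 2.01% in T cell-like cells. Apoc3 was uneven between their clusters. It had 239 and 148 CPM in cluster 20, led by Afp, Tph1 and Chga, where Tph1 makes serotonin, and 29.5 and 24.3 CPM in cluster 19, led by the hormone genes Sst, Ghrl and Gip. Apoa4 in cluster 20 was 91.3 and 241 CPM, so the ratio of Apoc3 to Apoa4 there was above that of cluster 19 in both libraries. Apoc2 and Apoc3 were the 2 members past the fold of 8 measured, both lower in MG53-TG, at -0.74 (interval -1.07 to -0.40) and -0.79 (interval -1.11 to -0.46), where 6.31% of measured genes passed it and 3.59% in this direction. Of the 17 enterocyte markers, 9 were measured in these cells and 1 was lower past the fold, with 2031 and 2184 CPM in sum, and their part in the result was not tested. Cluster 20 held 34.3% of the UMIs of these cells in WT and 28.01% in MG53-TG. Within cluster 20 Apoc2 was 125 and 116 CPM, and within cluster 19 77.8 and 33.1 CPM. T cell-like cells had 34.2 and 39.8 CPM of Apoc2, 11.2 and 14.8 CPM of Apoc3 and 91.98 and 75.0 CPM of Apoa4. The MG53-TG Apoc2 of cluster 19 and the WT Apoa4 of cluster 20 were thus not above the T cell-like level, nor was the Apoc2 of cluster 19 above that of cluster 17 in either library, and the part of free RNA in these differences was not tested.

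Over all epithelial cells outside the enterocyte-like clusters, 9 of the 10 genes were measured, none passed the fold (beside 5.28% of measured genes), and each of the 9 had a ratio below 0, with a median log2 ratio of -0.22 beside 0.10 for all measured genes. Apoc2 at -0.02 (interval -0.06 to 0.03) and Sar1b at -0.02 (interval -0.06 to 0.03) were not distinct from 0. Among the 13 alternatives Apoc2 changed sign in 7, Apoa4 and Sar1b in 2 each, and Apob, Mttp and Mogat2 in 1 each. The mix of cells differed, since absorptive progenitor-like cells were 21.4% of epithelial cells in WT and 11.6% in MG53-TG and goblet-like cells 25.02% and 38.6%. With equal weight for each cluster the median was 0.00589, the direction then being the opposite one.

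Over the 22 epithelial clusters, levels on the log2(CPM + 1) scale of both libraries together were most alike for Mttp and Mogat2 (Pearson r 0.984) and for the neighbours Apoa1 and Apoa4 (r 0.972). The chromosome 7 neighbours Mogat2 and Dgat2 had r 0.795. Sar1b was least like the others, with r 0.616 with the mean of the 10, and 0.0866 with Apoc2. These are descriptions over clusters that share 2 libraries and differ in depth. Genes whose pattern was among the most like the mean of the 10 were Gda (r 0.991), H2-Q1 (0.987), 2010106E10Rik (0.986) and Mpp1 (0.976). Member by member, the most alike gene was Ggt1 for Apoa1 (r 0.992), G6pc for Apoa4, Gk for Apob, Cyp2b10 for Apoc2 and Gpt for Apoc3. It was Tkfc for Mttp, Btnl1 for Dgat1, Zzef1 for Dgat2, Ces2e for Mogat2 and Mdh2 for Sar1b, and over the 10 r ran from 0.915 to 0.992.

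Other lipid genes were compared in enterocyte-like cells by role. Of the uptake and binding genes, 9 of 11 were measured, with a median of 0.04. Past the fold 1 was higher in MG53-TG and none was lower, beside 2.33% of all measured genes in either direction. The 1 was Slc27a2, a fatty acid transporter and acyl-CoA synthetase, at 58.9 and 90.4 CPM (log2 ratio 0.62). Fabp1, the liver-type fatty acid binding protein, came next at 12780.5 and 16941 CPM (0.41), and the lowest were the cholesterol carrier Npc1l1 (-0.11) and Acbd3 (-0.07). Of the genes of lipoprotein loading, export and editing, all 16 were measured and none passed the fold (median 0.10). Its highest were Bet1, a transport SNARE (0.37), and Sec23b, a coat protein (0.31), and its lowest Prap1 (-0.12) and Pla2g12b (-0.07).

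None of the measured genes of glycerolipid synthesis (8 of 11, median 0.04) passed the fold, from -0.30 for Lpin3 and -0.03 for Lpin2, phosphatidate phosphatases, to 0.33 for Plpp1 and 0.37 for Agpat1. Nor did those of the lipid droplet and hydrolysis (7 of 10, median 0.06), from -0.18 for the lysosomal lipase Lipa and -0.17 for Lipe to 0.14 for Cideb and 0.25 for the droplet coat gene Plin3. Of 9 other apolipoprotein genes only Apol7a was measured, at 114 and 112 CPM. Of the regulators, 13 of 16 were measured and none passed the fold (median 0.03), with Hnf4g at 0.42 and Plagl2 at 0.36 on one side and Smad4 at -0.51 and Srebf1 at -0.34 on the other.

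Some distal bowel genes differed in the same cells. Of the distal genes, 6 of 7 were measured and 3 were lower in MG53-TG past the fold, namely Fabp6 (622 and 319.5 CPM, log2 ratio -0.96), Slc10a2 (143 and 68.1 CPM, -1.07) and Cubn (73.01 and 43.1 CPM, -0.76). Of all measured genes in these cells, 2.33% passed the fold in either direction. Among the enterocyte-like clusters Fabp6 and Slc10a2 were highest in cluster 12, which held 8.81 and 5.58% of enterocyte-like UMIs. The highest distal ratios were those of Slc51b (293 and 353 CPM, 0.27) and Amn (89.8 and 91.7 CPM, 0.03), which did not pass the fold. None of the 5 measured proximal genes passed it (median 0.28), the highest being Fabp1 and Onecut2 (0.38). Of 5 measured villus end genes, Nt5e alone was higher, at 16.2 and 30.7 CPM (0.92). The 17 enterocyte markers had 9779 and 10326 CPM in sum, with none past the fold. These distal genes and Nt5e thus differed between the libraries beside the ratios of the 10 genes, and the part of region and villus position in those ratios was not tested.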

How the data were processed

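The deposited counts, whole UMIs per gene and barcode, were made by the authors from 1 WT and 1 MG53-TG library. The WT file carries the name of Cell Ranger 4 and the MG53-TG file that of version 6.0.1, and the submitters' processing notes name mm10 and Seurat. The WT table held all 2005718 barcodes (158455748 UMIs), and that of MG53-TG 12361 of at least 500 UMIs (128227881 UMIs). Use of strand and of reads with several matches is not given in the sources used here.

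Barcodes with at least 1354 UMIs, 200 genes and at most 25% mitochondrial UMIs were kept. The automatic doublet threshold marked under 0.5% of cells, so the highest scores were removed at a rate of 0.8% per 1000 cells (438 and 212 barcodes). Counts scaled to 10000 per cell were clustered on 2000 variable genes, without the 10 genes and Trim72 (30 components, 15 neighbours, Leiden resolution 1, scanpy 1.11.5, leidenalg 0.10.2). A cluster was named from at least 3 markers, each in 10% of its cells at 1.5-fold. Leaving clusters under 50 cells unnamed was settled after the clusters were seen. UMIs were summed by type and library, and intervals (95%; Poisson, conditional binomial or Clopper-Pearson, all exact, scipy 1.17.1) cover counting error only. With 1 library per genotype nothing was tested. The ratios, their intervals and the fold rule were checked on simulated counts, which did not cover the summing by type and library. Other filters, clusterings, scales and ways of summing were tried.

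All 10 genes were described. From each list of lipid or region genes the 2 highest and 2 lowest measured ratios and those past the fold were eligible for naming, and for pattern the genes of highest Pearson r. 1 eligible gene is not reported here. The members and lists were chosen with earlier results of these data known.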

Additional observations from a re-analysis of the deposited data

Results flagged for a closer look

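Barcodes over the mitochondrial limit of 25% were left out of the main values, and only the alternative limit of 50% takes them in part. They held 436386 WT and 582825 MG53-TG UMIs of the 10 genes, against 459779 and 435131 in enterocyte-like cells. The 10 genes took 4.42% of nonmitochondrial UMIs in 3755 WT barcodes and 4.23% in 4402 MG53-TG barcodes. On the same scale their sum there was 44224 and 42261 CPM, against 34407 and 31189.8 CPM in enterocyte-like cells. Dgat1 was higher in these barcodes than in enterocyte-like cells (1189 and 1226 against 591 and 548 CPM), and Sar1b lower (56.95 and 49.9 against 269.6 and 310.0 CPM).

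WT barcodes under 100 UMIs, which belong to no cell type, held 61445 UMIs of the 10 genes, a signal outside the cells compared. RNA outside cells is usual in droplet data, so a count above 0 says nothing by itself.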

How the results depend on the processing

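No paired analysis was possible because each genotype had 1 library and the labels give no replicate numbers, and for the same reason no replicate could be left out. The count of 0 members past 1.5-fold in enterocyte-like cells was 1 (Mttp) at a lower fold and stayed 0 in 15 of 16 alternatives, of which a fold of 2 and no filter on low genes could not change it. With barcodes up to 50% mitochondrial UMIs the median log2 ratio was -0.0176 in enterocyte-like and -0.0772 in other epithelial cells, and the share of epithelial member UMIs in enterocyte-like cells 89.4%. At resolution 0.5 the enterocyte-like median was 0.21 and the share 86.7%. With at least 3000 UMIs the other epithelial median was -0.11 and the share 79.6%. The other epithelial median was -0.32 scaled by the median of ratios, -0.36 as a mean of single-cell CPM, 0.00589 with equal weight per cluster, and -0.31 without goblet-like cluster 23, an alternative chosen after seeing the data. The share was 82.8% with at least 500 UMIs, 77.7% without doublet removal, 82.01% with the 10 genes and Trim72 in the clustering, 80.9% at resolution 2 and 79.9% with each library clustered alone. The enterocyte-like median stayed within its counting spread in 12 of 14 alternatives and the other epithelial one in 8 of 14. The share of epithelial member UMIs in enterocyte-like cells did so in 0 of 8, running from 77.7 to 89.4%. Without cluster 12, also chosen after seeing the data, the count was 0 and the median 0.10. The cause of these changes was not tested. Depth limits Dgat2, Mogat2 and Sar1b most, since few thinned cells held a UMI of them.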
